A study of Arabidopsis thaliana with 28 samples.

Results

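The indole glucosinolate genes described here are 10 *Arabidopsis* genes of 27371 in the expression tables, chosen with earlier results of these data known. They were given as a list of names with no threshold on measured values: the regulators *MYB34* (AT5G60890), *MYB51* (AT1G18570) and *MYB122* (AT1G74080), the core synthesis enzymes *CYP79B2* (AT4G39950), *CYP79B3* (AT2G22330), *CYP83B1* (AT4G31500) and *SOT16* (AT1G74100), the tailoring enzymes *CYP81F2* (AT5G57220) and *IGMT1* (AT1G21100), and the myrosinase *PEN2* (AT2G44490). RNA of whole seedlings grown for 14 days on sugar-free medium in long days was sequenced in 2 experiments. In the first, Col-0 wild type (WT) and *idd4*, a single T-DNA line with the insertion in the first exon by the study's methods, were left untreated or received 1 μM flg22 for 1 h, which makes 4 groups of 3 samples by the labels. For *idd4* without flg22 the paper writes untreated in its text and mock in a figure legend. Whether a mock was added is thus uncertain. In the second, a WT of its own was set beside *IDD4ox*, which carries pUBI10::IDD4:GFP, *IDD4-AA*, which carries pUBI10::IDD4-AA:RFP with both phosphorylation sites changed to alanine, and *IDD4-DD*, which carries pUBI10::IDD4-DD:RFP with both changed to aspartate. The labels list 2 samples for each of these 4 groups and name no treatment in their characteristics. The ubiquitin promoter drives all 3 transgenes, the labels place them in Col-0, and *IDD4* reads of the transgene and of the native gene are not told apart in the tables. *IDD4* encodes a zinc finger transcription factor, and flg22 is a peptide of bacterial flagellin that the receptor FLS2 perceives.

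Indole glucosinolates are sulfur-containing defence compounds that *Arabidopsis* makes from tryptophan. CYP79B2 and CYP79B3 turn tryptophan into indole-3-acetaldoxime, CYP83B1 oxidises the aldoxime, and after sulfur is added and the sugar is attached the sulfotransferase SOT16 completes the parent compound. CYP81F2 hydroxylates its indole ring, indole glucosinolate methyltransferases (IGMT) methylate the hydroxyl group, and the atypical myrosinase PEN2 cleaves the methoxylated product, a step known to be needed for resistance to fungi that try to enter leaf cells and for callose deposition after flg22.

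The tables hold 1 FPKM value per gene and group, that is, fragments per unit length of transcript, relative to all mapped fragments of the library, which the authors had combined over the replicates. There is therefore no replicate spread, no test and no p-value behind any difference given here, and the read depth is unknown. A change is the difference of log2(FPKM + 1) between a pair of groups, which understates the change of low genes, and a ratio is of FPKM alone. A gene entered a comparison if at least 1 of its groups had 1 FPKM or more, and a change counts as called from 2-fold on. *MYB122* lay under that minimum in all 8 groups, so that 9 of the 10 genes were compared. Comparisons within an experiment share groups with each other, and levels of the 2 experiments are only set side by side because their tables were normalised separately.

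The identifiers of the tables were out of alphabetical step with the values and were sorted, after which *FLS2* had 1.42 FPKM in untreated and 48.7 FPKM in flg22-treated WT. The flg22 marker gene *FRK1* had 0.0543 and 4.38 FPKM in the same groups. *IDD4* (AT2G02080) had 9.23 FPKM in the WT of the second experiment, 197 in *IDD4ox*, 71.6 in *IDD4-AA* and 198 in *IDD4-DD*. In the groups labelled *idd4*, in contrast, *IDD4* was higher than in WT, with 23.0 against 14.5 FPKM untreated and 22.4 against 5.69 FPKM after flg22. The level of *IDD4* was thus not lower in these groups, whereas the paper describes the line as a knockout, with genotyping and RT-PCR of the transcript. A single value per gene does not show which parts of the gene the reads cover, so an intact transcript cannot be told from partial ones. Every direction drawn below between *idd4* and WT is between the groups that carry these labels.

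In WT, flg22 was followed by higher levels at the end of the pathway and by an exchange of regulators at its start. The largest differences were those of *CYP81F2*, *IGMT1*, *PEN2* and *MYB51*, and *MYB34* was the one gene at least 2-fold lower. The upstream sequences of these 5 genes are shown first, because these genes differed most with flg22 in both genotypes. Each is the 250 bases before the annotated gene start in the TAIR10.1 reference, 5′ to 3′ on the strand of the gene, and capitals mark the W-box core TTGAC or its reverse complement GTCAA, the letters that WRKY factors are known to bind. The windows are chr5:24494041-24494290 (plus strand) for *MYB34*, chr1:6389149-6389398 (plus strand) for *MYB51*, chr5:23187590-23187839 (plus strand) for *CYP81F2*, chr1:7388513-7388762 (minus strand) for *IGMT1* and chr2:18364402-18364651 (plus strand) for *PEN2*, and none of them reaches into an annotated exon.
MYB34: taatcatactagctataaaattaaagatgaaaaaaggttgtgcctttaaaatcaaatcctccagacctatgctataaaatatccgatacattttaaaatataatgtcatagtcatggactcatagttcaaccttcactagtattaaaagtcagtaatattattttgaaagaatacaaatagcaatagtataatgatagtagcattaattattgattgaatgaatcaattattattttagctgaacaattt
MYB51: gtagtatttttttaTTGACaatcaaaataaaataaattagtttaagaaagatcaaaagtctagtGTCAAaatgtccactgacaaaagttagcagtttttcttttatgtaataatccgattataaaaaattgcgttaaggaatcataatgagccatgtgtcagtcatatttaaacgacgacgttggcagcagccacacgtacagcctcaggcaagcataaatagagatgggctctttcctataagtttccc
CYP81F2: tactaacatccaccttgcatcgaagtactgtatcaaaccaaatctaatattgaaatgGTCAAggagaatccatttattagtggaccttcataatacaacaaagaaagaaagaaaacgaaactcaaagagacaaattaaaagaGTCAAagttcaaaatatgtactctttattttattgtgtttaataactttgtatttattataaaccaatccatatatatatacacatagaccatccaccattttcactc
IGMT1: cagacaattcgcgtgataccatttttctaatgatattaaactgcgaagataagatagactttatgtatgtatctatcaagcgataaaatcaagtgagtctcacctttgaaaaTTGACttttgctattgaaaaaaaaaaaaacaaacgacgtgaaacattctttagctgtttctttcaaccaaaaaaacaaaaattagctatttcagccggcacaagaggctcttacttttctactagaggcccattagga
PEN2: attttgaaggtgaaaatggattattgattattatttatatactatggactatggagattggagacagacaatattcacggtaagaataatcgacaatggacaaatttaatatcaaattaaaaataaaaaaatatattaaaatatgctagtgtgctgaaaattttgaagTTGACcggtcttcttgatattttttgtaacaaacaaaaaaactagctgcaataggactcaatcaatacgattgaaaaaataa

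The W-box core was in 4 of the 10 windows, those of *MYB51* and *CYP81F2* with 2 matches each and those of *IGMT1* and *PEN2* with 1 match each. In *MYB51* the matches began 236 and 186 bases before the gene start, and in *CYP81F2* 193 and 108 bases before it. The single match began 138 bases before the start of *IGMT1* and 82 bases before that of *PEN2*. These are the 4 genes with the largest flg22 differences, while the windows of *MYB34*, *MYB122*, *CYP79B2*, *CYP79B3*, *CYP83B1* and *SOT16* held no match. The core is common, with a match on either strand in 44.9% of the windows of 27443 protein-coding genes and 2 or more matches in 14.1%. A count of 4 in 10 windows is thus not above the share of all genes. Among genes at least 2-fold higher with flg22 in WT, 60.8% of the windows held it, against 41.9% among genes at least 2-fold lower and 45.3% among all genes compared. The 6 letters AGACAA, the core of the motif known from the maize factor ID1 and its IDD relatives, searched with the reverse complement TTGTCT, occurred once each in the windows of *CYP81F2*, *IGMT1* and *PEN2* and in none of the other 7. They began 123, 249 and 185 bases before those gene starts and overlapped no W-box core, and 19.6% of all windows held them. The G-box CACGTG, a palindrome that MYC factors bind, was in none of the 10 windows and in 6.49% of all. A match of letters is a description of the window and not a binding site. Any part of these letters in the flg22 differences was not tested.

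**Figure D1:**
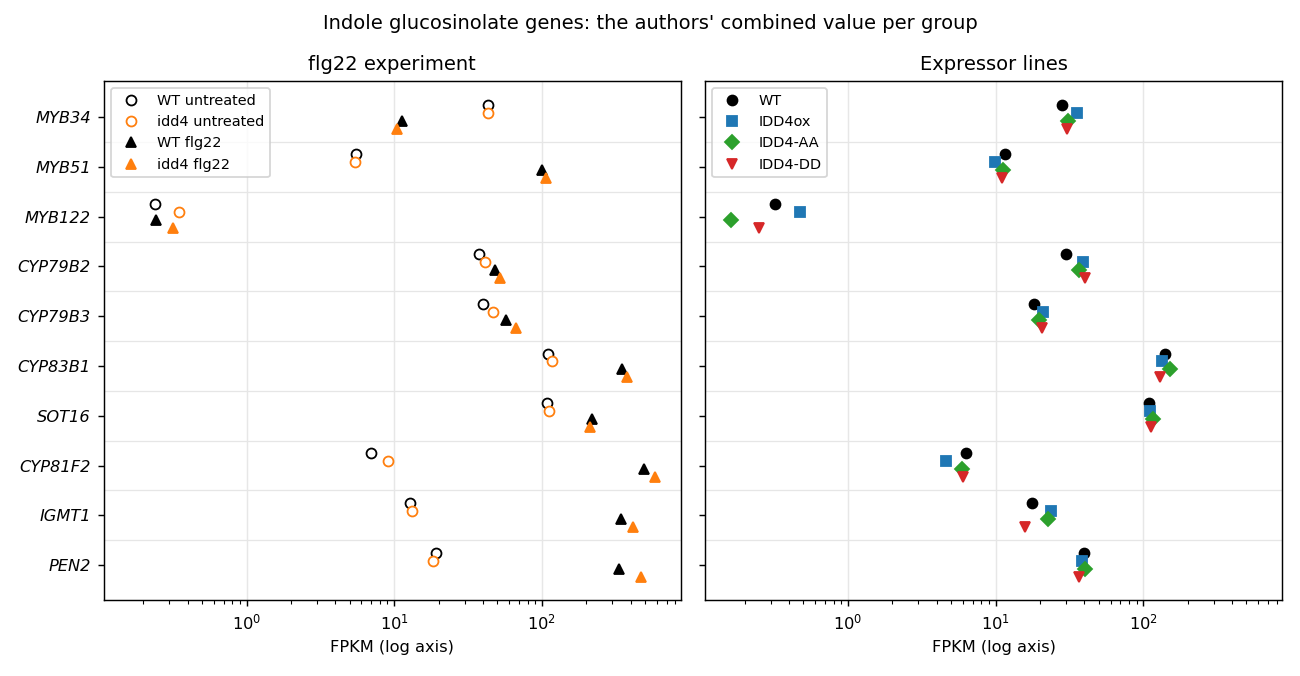
The 10 genes by FPKM on a log axis in the 4 groups of the flg22 experiment (left) and the 4 groups of the expressor experiment (right), with 1 point for the authors' combined value of each group. After flg22, *CYP81F2*, *IGMT1*, *PEN2* and *MYB51* lie far to the right of their untreated values and *MYB34* to the left, while the points of the expressor experiment lie close together for every gene but *MYB122*, which stays below 1 FPKM.

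The 3 regulators are R2R3 MYB factors that activate the synthesis genes. *MYB34* (chromosome 5, 24494291 to 24496371) had 42.8 FPKM in untreated WT, 43.4 in untreated *idd4*, 11.3 in WT with flg22 and 10.5 in *idd4* with flg22. Both treated groups were thus below both untreated groups, by a log2 change of -1.84 in WT and -1.95 in *idd4*. From the lowest change upwards, *MYB34* took place 308 among 18540 genes in WT and place 254 among 18558 in *idd4*. *MYB51* (chromosome 1, 6389399 to 6391386), best known for the synthesis of indole glucosinolates in shoots and under attack, had 5.48 FPKM in untreated WT, 5.43 in untreated *idd4*, 99.6 in WT with flg22 and 106 in *idd4* with flg22. It was 18.2 times as high with flg22 as without in WT and 19.6 times as high in *idd4*, log2 changes of 3.96 and 4.06. *MYB34* was thus the more abundant regulator without flg22 and *MYB51* the more abundant one with it, in both genotypes. *MYB122* (chromosome 1, 27855578 to 27857598) had 0.240, 0.349, 0.245 and 0.315 FPKM in the same 4 groups and between 0.162 and 0.473 FPKM in the second experiment. It is the least abundant of the 10 genes in all 8 groups, and the coding sequences of *MYB51* and *MYB122* are 74.4% identical.

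Of the 10 genes, 2 core enzymes were the most abundant without flg22. *CYP83B1* (chromosome 4, 15273410 to 15275404, minus strand) and *SOT16* (chromosome 1, 27864345 to 27865694, minus strand) ranked first and second in both untreated groups of the first experiment and in all 4 groups of the second. *CYP83B1*, which channels the aldoxime into glucosinolates and away from other indole products, had 110 FPKM in untreated WT, 117 in untreated *idd4*, 350 in WT with flg22 and 377 in *idd4* with flg22. It was 3.18 and 3.21 times as high with flg22 in WT and *idd4*. *SOT16* had 108, 112, 218 and 212 FPKM in these groups, log2 changes of 1.01 in WT and 0.92 in *idd4*, one just above and the other just below the 2-fold limit. The entry enzymes differed less. *CYP79B2* (chromosome 4, 18525042 to 18527602) had 37.5 FPKM in untreated WT, 41.2 in untreated *idd4*, 48.4 in WT with flg22 and 52.0 in *idd4* with flg22. *CYP79B3* (chromosome 2, 9488413 to 9491404) had 39.7, 46.8, 57.2 and 66.6 FPKM. For both genes the order of the groups was the same, with untreated WT lowest and treated *idd4* highest, and the flg22 change was between 0.33 and 0.51 on the log2 scale, under the 2-fold limit. In *idd4*, the change of *CYP79B2* turned negative when the groups were scaled to the sum of nuclear genes. The pair shares 80.9% of its coding bases and carries out the same reaction.

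The tailoring enzymes had the largest changes. *CYP81F2* (chromosome 5, 23187840 to 23189902), which opens the route to 4-methoxy-indol-3-ylmethyl glucosinolate, had 7.01 FPKM in untreated WT, 9.14 in untreated *idd4*, 492 in WT with flg22 and 582 in *idd4* with flg22. It was 70.2 times as high with flg22 in WT and 63.6 times as high in *idd4*, log2 changes of 5.94 and 5.84 that put it at places 29 and 47 from the top. Eighth among the 10 genes without flg22, it was the most abundant of them with it. *IGMT1* (chromosome 1, 7386762 to 7388512, minus strand), a methyltransferase acting after CYP81F2, had 12.8, 13.1, 344 and 413 FPKM in the same groups. The ratios were 26.8 in WT and 31.5 in *idd4*, and the log2 changes 4.64 and 4.87. *IGMT1* is 92.5% to 93.0% identical in its coding bases to *IGMT2*, *IGMT3* and *IGMT4*, which lie beside it on chromosome 1, so that reads may have been split among them and the value of a single copy is uncertain. Summed over the 4 copies, the level was 104 FPKM in untreated WT, 105 in untreated *idd4*, 3007 in WT with flg22 and 3464 in *idd4* with flg22, which shows the same difference for the copies together.

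*PEN2* (chromosome 2, 18364652 to 18367835) had 19.3 FPKM in untreated WT, 18.4 in untreated *idd4*, 335 in WT with flg22 and 470 in *idd4* with flg22. It was 17.3 times as high with flg22 in WT and 25.6 times as high in *idd4*, log2 changes of 4.05 and 4.60. With the values as deposited, the flg22 changes of the genotypes lay farthest apart for *PEN2*, by 0.56 with *idd4* above WT, and *IGMT1* followed with 0.23. For the other 8 genes the difference between the genotypes lay between -0.11 and 0.10. With scaling to the sum of nuclear genes, which was applied to this difference after seeing the data, *PEN2* was at 0.29, *IGMT1* turned to -0.03 and *CYP81F2* lay farthest apart, at -0.36. None of the 9 genes reached a 2-fold difference of the responses, which 2.09% of all genes did. The median difference was -0.01 over the 9 genes and 0.11 over all genes.

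Of the 9 genes compared, 6 were at least 2-fold higher and 1 at least 2-fold lower with flg22 in WT, where 10.9% of all genes were higher and 8.48% lower to that extent. In *idd4*, 5 were higher and 1 was lower, with *SOT16* the gene that missed the limit, and the shares of all genes were 13.1% and 8.33%. The median change of the 9 genes was 1.66 in WT and 1.67 in *idd4*, against -0.16 and -0.06 over all genes. The summed level of the 10 genes was 383 FPKM in untreated WT and 1955 in WT with flg22, and 407 and 2289 FPKM in *idd4*. Without flg22, *CYP83B1* and *SOT16* made up 28.8% and 28.2% of that sum in WT. With flg22, *CYP81F2* made up 25.2%, *CYP83B1* 17.9%, *IGMT1* 17.6% and *PEN2* 17.1%, so that late enzymes stood at the top of the order together with *CYP83B1*. Scaling to the sum of nuclear genes shifted the log2 scale by -0.20 in WT and by -0.46 in *idd4*, which left every gene at least 2-fold different on its side of 0. It took *SOT16* in WT below 2-fold.

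**Figure D2:**
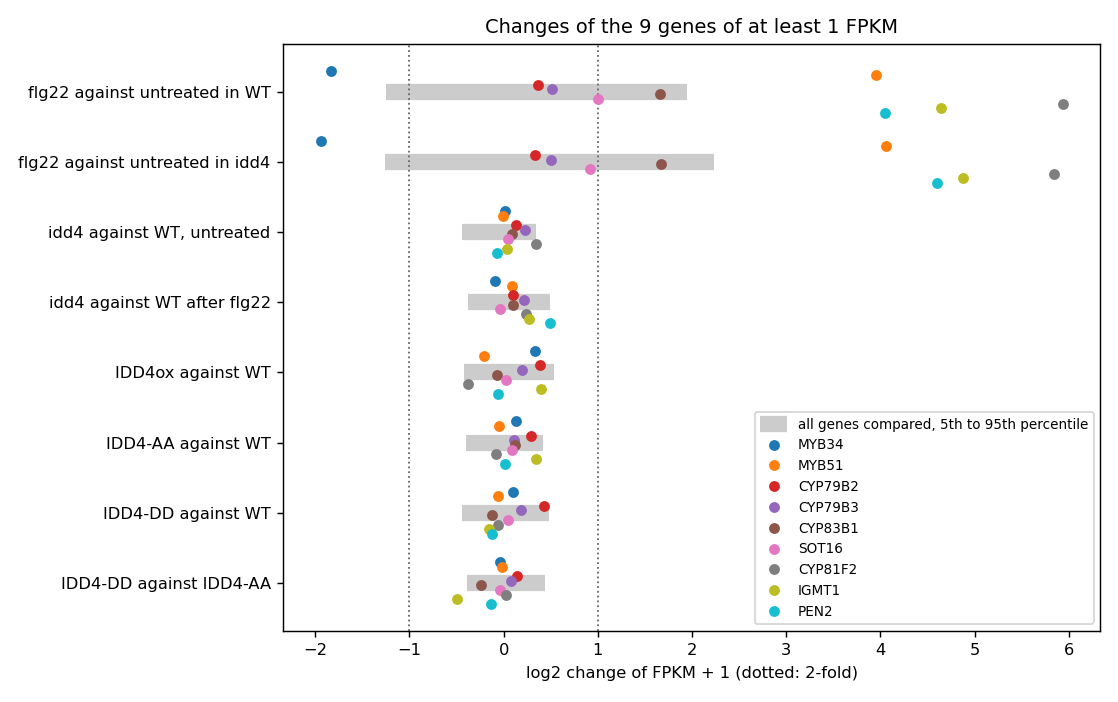
Change of log2(FPKM + 1) of the 9 genes of at least 1 FPKM in the 8 comparisons, 1 coloured point per gene, with the range from the 5th to the 95th percentile of all genes compared as a grey bar and the 2-fold limits dotted. In both flg22 comparisons *CYP81F2*, *IGMT1*, *PEN2* and *MYB51* lie above the grey bar and *MYB34* below it, whereas all points of the other 6 comparisons lie inside the 2-fold limits.

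The steps next to the 10 genes were read from 42 genes of the pathway and its neighbours, chosen with earlier results of these data known. With flg22, 13 of the 41 that entered the comparison in WT were higher by 2-fold or more and 7 were lower to that extent. Of all genes, 10.9% and 8.48% were. In *idd4*, 13 of 42 were higher and 8 lower, against 13.1% and 8.33% of all genes. The supply of tryptophan lay on the higher side, with 4 of 7 genes at least 2-fold higher in both genotypes. *ASA1* and *ASB1*, the subunits of anthranilate synthase, went from 9.08 to 40.7 and from 4.23 to 25.5 FPKM in WT. The tryptophan synthase genes *TSA1* and *TSB1* went from 8.69 to 20.3 and from 32.6 to 248 FPKM. The group as a whole is uneven, since *PAT1* had 15.6 and 15.1 FPKM and *PAI1* 6.20 and 4.88 FPKM.

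Between CYP83B1 and SOT16 the pathway adds glutathione, trims it, splits the conjugate and attaches glucose. *GSTF10*, a glutathione transferase, went from 128 to 471 FPKM in WT, and *GGP1*, the peptidase that trims the conjugate, from 112 to 346 FPKM. Both were at least 2-fold higher in *idd4* as well. *GSTF9* had 352 and 223 FPKM in WT, the C-S lyase gene *SUR1* 25.2 and 20.8 FPKM, and the glucosyltransferase gene *UGT74B1* 87.6 and 64.6 FPKM. These 3 genes were thus lower with flg22 but not by 2-fold.

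Tailoring showed the sharpest contrast within gene families. *IGMT2* went from 4.89 to 527 FPKM in WT and from 7.46 to 614 FPKM in *idd4*. *IGMT3* went from 9.91 to 415 FPKM and *IGMT4* from 76.3 to 1721 FPKM in WT, and both were also at least 2-fold higher in *idd4*. The more distant *IGMT5*, 77.4% identical to *IGMT1* and known for the 1-methoxy product, had 29.8 FPKM in untreated and 26.0 FPKM in treated WT. Among the hydroxylases, *CYP81F4*, which opens the 1-methoxy route, had 196 FPKM in untreated and 115 FPKM in treated WT, and 215 and 113 FPKM in *idd4*. *CYP81F1* had 14.8 and 23.0 FPKM and *CYP81F3* 2.60 and 2.19 FPKM in WT, none of them past 2-fold. *CYP81F2* and *IGMT1* to *IGMT4* thus stood apart in their flg22 change from their relatives *CYP81F1*, *CYP81F3*, *CYP81F4* and *IGMT5*. This is a contrast of single genes and not of whole routes. *CYP81F2* made up 3.18% of the summed FPKM of *CYP81F1* to *CYP81F4* in untreated WT and 77.8% with flg22, and in *idd4* 3.78% and 80.1%. In the windows upstream of these 7 relatives the W-box core occurred in *IGMT2*, *IGMT3*, *IGMT4* and *CYP81F4*, and not in *IGMT5*, *CYP81F1* or *CYP81F3*. Of the 250 bases, 185 for *IGMT4*, 137 for *CYP81F1* and 3 for *CYP81F4* lie in an annotated exon. These windows are thus not fully upstream sequence. The core was present before *CYP81F4*, which was lower with flg22.

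Of the 8 genes of breakdown and transport, *PEN3* and *PCS1* were at least 2-fold higher in both genotypes. *PEN3*, an ABC transporter of the plasma membrane that works with PEN2, went from 30.5 to 1020 FPKM in WT, and *PCS1*, the phytochelatin synthase that acts downstream of PEN2, from 4.26 to 97.8 FPKM. The genes of the classical myrosinases and the glucosinolate transporters on the list, *TGG1*, *TGG2*, *GTR1* and *GTR2*, stayed within 2-fold, as did the β-glucosidase genes *BGLU18* and *PYK10*. Among the bHLH partners of the MYB factors, *MYC2* went from 20.9 to 68.9 FPKM in WT and *MYC4* from 26.3 to 8.22 FPKM, and both differences were at least 2-fold in *idd4* too, while *MYC3* stayed within 2-fold.

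The camalexin branch leaves the pathway at indole-3-acetaldoxime, the product of CYP79B2 and CYP79B3. *WRKY33*, a regulator of camalexin synthesis, went from 7.16 to 221 FPKM in WT and from 7.96 to 337 FPKM in *idd4*. *CYP71A13*, the enzyme that draws the aldoxime into camalexin, went from 19.7 to 0.94 FPKM in WT and from 17.0 to 0.59 FPKM in *idd4*. The last enzyme, *PAD3*, had 3.19 and 3.69 FPKM in WT. *CYP71A12*, 90.4% identical to *CYP71A13* in its coding bases, had 11.3 and 13.4 FPKM, and reads may have been split between this pair.

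The aliphatic counterparts, which make the methionine-derived glucosinolates, were lower with flg22 in all 6 genes compared in WT and all 7 compared in *idd4*. The difference was at least 2-fold for 5 of 6 in WT and for 6 of 7 in *idd4*, with the very low *MYB76* as the additional gene. Of all genes, 11298 of 18540 were lower in WT and 10083 of 18558 in *idd4*, and 8.48% and 8.33% were lower by at least 2-fold. The regulators *MYB28* and *MYB29* went from 26.9 to 4.12 and from 11.0 to 0.24 FPKM in WT. The entry enzyme gene *CYP79F1* went from 53.0 to 3.86 FPKM, *CYP83A1* from 143 to 37.1 FPKM and *SOT18* from 60.3 to 13.5 FPKM. *SOT17* had 33.8 and 19.4 FPKM, under the 2-fold limit. *CYP83A1* is the counterpart of *CYP83B1*, with 67.4% identical coding bases, and *SOT18* that of *SOT16*, with 81.4%, so that both pairs moved in opposite directions.

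**Figure D3:**
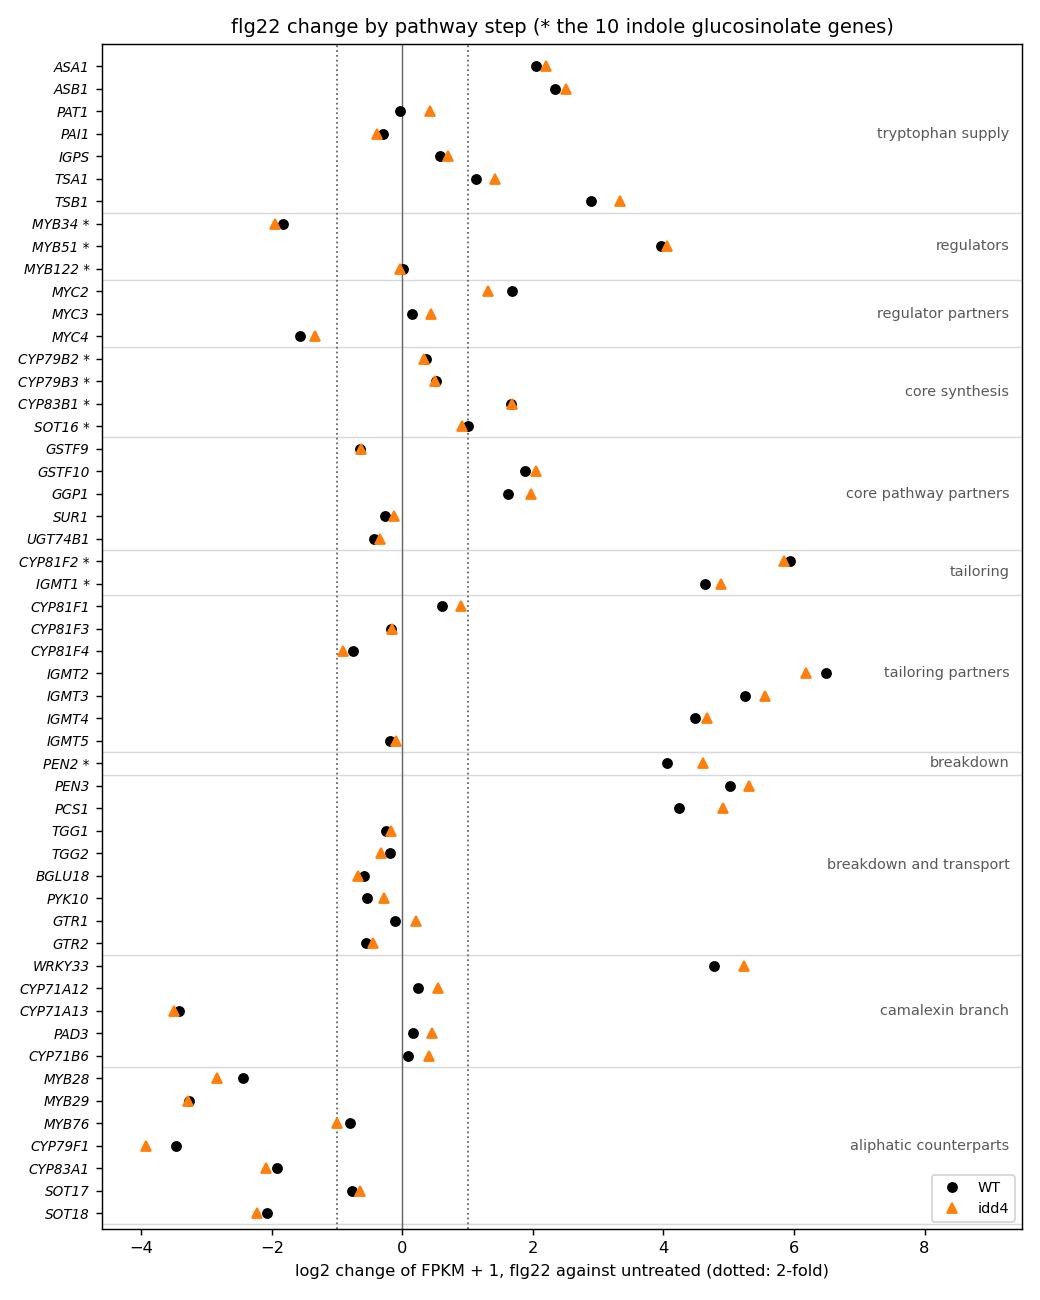
The flg22 change of log2(FPKM + 1) for the 10 genes (marked with an asterisk) and 42 genes of neighbouring steps, ordered by step, with WT as black circles and the group labelled *idd4* as orange triangles, and the 2-fold limits dotted. *IGMT2* lies farthest to the right, at 6.49 in WT, and *CYP79F1* farthest to the left, at -3.92 in *idd4*, with the aliphatic genes all to the left of 0.

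Between the genotypes none of the 9 genes differed by 2-fold, either untreated, where 0.986% of all genes did, or after flg22, where 1.12% did. Untreated, the changes of *idd4* against WT lay between -0.07 and 0.34 with a median of 0.05, against -0.05 over all genes. *CYP81F2* had the largest, at 1.30 times its WT level, and *CYP79B3* followed at 1.18 times. *IGMT2* had 1.53 times its WT level at low values, which is also within 2-fold. After flg22 the changes lay between -0.09 and 0.49 with a median of 0.10, against 0.06 over all genes. *PEN2* had the largest, at 1.40 times its WT level, and took place 912 from the top among 17926 genes. *IGMT1* followed at 1.20 and *CYP81F2* at 1.18 times. *MYB34* and *SOT16* were the 2 genes below their WT levels after flg22, at 0.932 and 0.974 times. Among the 42 neighbouring genes 0 differed by 2-fold in either comparison, and 34 of 39 compared were higher in *idd4* after flg22, where 10826 of 17926 genes were higher among all. The 5 shoot markers were lower in the groups labelled *idd4*, with a sum of 6857 against 8618 FPKM untreated and 6791 against 8810 FPKM after flg22. Among all genes, 11158 of 18349 were lower in *idd4* untreated and 7100 of 17926 after flg22. The 7 root markers, of which *PYK10* holds most of the sum, came to 248 against 290 FPKM and to 227 against 238 FPKM, and without *PYK10* to 41.9 against 47.6 FPKM and to 57.1 against 70.5 FPKM, and no marker of either list was at 0. The part of these marker levels in the genotype differences was not tested, and in bulk RNA fewer cells of a type and less RNA per cell cannot be told apart.

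In the expressor experiment none of the 9 genes differed by 2-fold from WT, where 1.59% of all genes did in *IDD4ox*, 0.923% in *IDD4-AA* and 1.58% in *IDD4-DD*. The 3 comparisons share the WT group. *CYP79B2* had 29.8 FPKM in WT, 39.4 in *IDD4ox*, 36.7 in *IDD4-AA* and 40.6 in *IDD4-DD*, log2 changes of 0.39, 0.29 and 0.43. WT was the lowest group, and the highest group was 1.36 times as high. Its paralog *CYP79B3* had 18.1, 20.9, 19.6 and 20.8 FPKM in the same order of groups, again with WT lowest. *MYB34* had 28.2, 35.8, 31.1 and 30.3 FPKM and *MYB51* 11.6, 9.93, 11.2 and 11.1 FPKM. For these regulators WT was the lowest group of *MYB34* and the highest of *MYB51*, and *IDD4ox* was at the other end for both.

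*CYP83B1* had 141 FPKM in WT, 134 in *IDD4ox*, 153 in *IDD4-AA* and 129 in *IDD4-DD*. *SOT16* had 109, 111, 115 and 112 FPKM, with 1.06 as the ratio of its highest to its lowest group, the smallest span of the 10 genes. *PEN2* had 39.8, 38.2, 40.3 and 36.6 FPKM. These 3 genes stayed within 1.18 times between their lowest and highest groups. *CYP81F2* had 6.32 FPKM in WT, 4.64 in *IDD4ox*, 5.93 in *IDD4-AA* and 6.05 in *IDD4-DD*, with *IDD4ox* lowest at a log2 change of -0.38. *IGMT1* had 17.8, 23.6, 22.8 and 15.8 FPKM. It was thus above WT in *IDD4ox* and *IDD4-AA* and below it in *IDD4-DD*, with log2 changes of 0.39, 0.34 and -0.16. Summed over *IGMT1* to *IGMT4* the 4 groups had 271, 298, 274 and 266 FPKM, so that the copies together spanned less than *IGMT1* alone. *IGMT4* held most of this sum, with 210, 222, 204 and 212 FPKM. *IGMT3* had 37.7, 42.9, 41.1 and 31.4 FPKM, the same order of groups as *IGMT1*. *IGMT2* had 5.88, 8.78, 6.25 and 6.77 FPKM, with WT lowest. The median change of the 9 genes was 0.03 in *IDD4ox*, 0.11 in *IDD4-AA* and -0.06 in *IDD4-DD*, against 0.07, 0.03 and 0.03 over all genes.

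*IDD4-DD* was also set against *IDD4-AA*, the lines whose transgenes differ at the phosphorylation sites and in the level of *IDD4*. None of the 9 genes differed by 2-fold, which 1.26% of all genes did. *IGMT1* had the largest change, -0.50, at place 473 from the lowest among 18956 genes, and *CYP83B1* followed with -0.24. The other 7 genes lay between -0.13 and 0.14. Of the 42 neighbouring genes, *CYP71A13* had 0.854 FPKM in *IDD4-AA* and 6.15 in *IDD4-DD*, and *PAD3* 4.48 and 10.7 FPKM, both of the camalexin branch and both at least 2-fold. *CYP71A12* and *CYP71A13* are 90.4% identical in their coding bases. Some reads may have been split between them, which the combined values do not show, so that calls on either alone keep this uncertainty. In *IDD4ox*, *CYP71A12* was at least 2-fold lower, with 0.612 against 3.40 FPKM, while *CYP71A13* was higher, with 4.59 against 2.73 FPKM. *CYP71A13* was also at least 2-fold lower in *IDD4-AA* than in WT. The calls on *CYP71A12*, *CYP71A13* and *PAD3* were the only ones among the 42 genes in the 4 comparisons of the second experiment. None of these genes exceeded 10.7 FPKM in this experiment.

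The root markers were lower in the expressor lines, with sums of 656 FPKM in WT, 547 in *IDD4ox*, 534 in *IDD4-AA* and 413 in *IDD4-DD*. One of the 7 is *PYK10*, also counted above among the genes of breakdown and transport, which had 445 FPKM in WT and 302 in *IDD4-DD*. Without it, the other 6 summed to 210.3 FPKM in WT, 123 in *IDD4ox*, 127 in *IDD4-AA* and 111 in *IDD4-DD*, a sum left apart after seeing the data. Of the 7 markers, 6 were lower than in WT in *IDD4ox* and 7 in each of the other lines, and none was at 0. Among all genes, 7246 of 19016 were lower in *IDD4ox*, 8487 of 18859 in *IDD4-AA* and 8590 of 18955 in *IDD4-DD*. The shoot markers summed to 7438, 7273, 7111 and 7897 FPKM. *CYP81F4* was also lower in the lines, with 373 FPKM in WT, 308 in *IDD4ox*, 331 in *IDD4-AA* and 231 in *IDD4-DD*. In the first experiment *CYP81F4* had 215 FPKM in untreated *idd4* against 196 in WT, where the root marker sum was 248 against 290 FPKM. After flg22 *CYP81F4* had 113 FPKM in *idd4* against 115 in WT, and the sum was 227 against 238 FPKM. The part of these marker levels in the values of the expressor lines was not tested.

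Some untreated levels differed more between the WT groups of the 2 experiments than between genotypes within either. *MYB51* had 5.48 FPKM in the untreated WT of the first and 11.6 in the WT of the second, *PEN2* 19.3 and 39.8, and *CYP79B3* 39.7 and 18.1. *SOT16*, with 108 and 109 FPKM, and *CYP81F2*, with 7.01 and 6.32 FPKM, were close. The order of the 10 genes shifted accordingly, with *PEN2* the sixth in the first WT and the third in the second. Without replicate values, neighbours in these orders cannot be separated by their spread. The WT groups also differed outside the 10 genes. Root markers without *PYK10* summed to 47.6 FPKM in the first WT and 210 FPKM in the second, and shoot markers to 8618 and 7438 FPKM. The part of this in the levels of the 10 genes was not tested.

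For each of the 9 genes that reached 5 FPKM in some group, the gene with the most similar profile was sought among 14343 genes by the root mean square difference of log2(FPKM + 1) over the 8 groups, centred within each experiment. *MYB51* came closest to *BIR1* (AT5G48380), a receptor-like kinase gene, with a difference of 0.060. *BIR1* had 13.9 FPKM in untreated WT, 202 in WT with flg22 and 244 in *idd4* with flg22. *CYP81F2* came closest to AT2G24600 with 0.060, *PEN2* to AT5G23510 with 0.053 and *IGMT1* to *ABCG42* (AT4G15233), an ABC transporter gene, with 0.118. *MYB34* came closest to AT2G44300 with 0.061, and *CYP83B1* to AT5G62560 with 0.040. The nearest profiles of *CYP79B2*, *CYP79B3* and *SOT16* were AT3G08930 with 0.034, AT5G42360 with 0.032 and *RHC2A* (AT2G39720) with 0.032. None of these nearest genes is one of the 10, and a likeness over 8 combined values is a description.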

How the data were processed

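By the study's methods, RNA of whole seedlings was sequenced, Trimmomatic was used for trimming, TopHat for alignment to the TAIR10 genome, and Cufflinks for expression values. The authors deposited FPKM values on a linear scale, 1 per gene and group, already combined over replicates, so the depth per sample is unknown and no error could be computed. The labels and the study's methods give different numbers of replicates, different sequencer models and different tag positions for some lines. Samples of chromatin immunoprecipitation were not analysed here. In the groups of the first experiment, the columns headed IDD4 were read as the *idd4* line, because the labels of that experiment hold WT and *idd4* alone.

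Of 27371 identifiers, 21642 stood away from their alphabetical place. With sorted identifiers, untreated WT values equalled those of a supplementary table of the study for 1900 of 1900 genes at a relative tolerance of 0.001, and with the order as given for 535, so sorted identifiers were used. Changes were computed as differences of log2(FPKM + 1) with Python 3.11.15, pandas 2.3.3 and numpy 2.4.6 for genes of at least 1 FPKM in either group, and counted from 2-fold on. The counting was tested on simulated data. Names, coordinates and the 250 bases upstream come from RefSeq's TAIR10.1 annotation, which matched 26703 identifiers and is not the annotation the authors used, and coding sequences were aligned with Biopython 1.88.

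The rule for the 10 genes uses names alone, but the 10 genes, the lists of 42 neighbouring genes and the marker lists were chosen with earlier results of these data known. Neighbouring genes were named where they differed at least 2-fold with at least 5 FPKM in one group, or where they are sequence relatives of one of the 10. *PAT1*, *PAI1*, *GSTF9*, *SUR1*, *UGT74B1*, *MYC3*, *CYP71A12*, *MYB76* and the genes of breakdown and transport within 2-fold were named after their values had been seen. Alternatives were pseudocounts of 0.1 and 5, no filter and a filter of 5 FPKM, a limit of 1.5-fold, and scaling by the median of ratios, to the nuclear sum without the 10 highest genes and to 4 reference genes.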

Additional observations from a re-analysis of the deposited data

How the results depend on the processing

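Over the alternatives of pseudocount and scaling, 400 values of the 10 genes were recomputed. None of the genes at least 2-fold different changed sign, 13 smaller changes did, 2 fell below 2-fold and 0 became 2-fold. Both losses were *SOT16* with flg22 in WT, from 1.01 to 0.98 with a pseudocount of 5 FPKM and to 0.81 with scaling to the nuclear sum. With a pseudocount of 5 FPKM the change of *MYB51* with flg22 was 3.32 in WT and 3.42 in *idd4*. The count of genes at least 2-fold higher with flg22 was 5 or 6 in WT and 5 in *idd4* under every setting of pseudocount, scaling and filter tried, and the count lower was 1. With a limit of 1.5-fold, 6 were higher and 1 lower in each genotype. The small median of *IDD4ox* turned to -0.03 with scaling by the median of ratios.

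For all genes, the split with flg22 in WT was 2028 higher and 1573 lower as deposited, 1726 and 2232 with scaling to the nuclear sum, and 2543 and 1081 with scaling to 4 reference genes, which moved all changes by -0.20 and 0.25. In *idd4* it was 2433 higher and 1546 lower as deposited and 1692 and 3098 with the nuclear sum, a shift of -0.46. For untreated *idd4* against WT it was 96 and 85 as deposited and 143 and 72 with the nuclear sum, a shift of 0.26, which brought *MYB51* and *PEN2* above 0. The difference of the flg22 responses of *PEN2* was between 0.29 and 0.56 over the settings.

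No paired analysis was possible because the tables hold 1 combined value per group, and leaving out each replicate was not run for the same reason. Counting error is unknown, and low genes such as *MYB122* are the least certain.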
